A study of Mus musculus with 6 samples.

Results

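Spermatogonia are the germ cells at the base of the seminiferous tubule. Undifferentiated spermatogonia renew themselves under GDNF, a growth factor that binds GFRA1 and signals through the receptor tyrosine kinase RET. They carry transcription and RNA regulators such as ZBTB16, NANOS2 and ID4. Retinoic acid moves them into differentiation, marked by the receptor KIT and by STRA8, and DAZL and DDX4 are RNA-binding proteins of germ cells at many stages. The 37 genes described here are such stem cell and differentiation genes, taken by their symbol from a table of 57180 genes. All 37 had 1 row each, and all were protein coding.

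The cells were GC-1 spg, an immortalised mouse line made from type B spermatogonia, so every library stands for the same line and not for testis tissue. Of the 6 libraries, 3 were labelled as overexpressing SNHG1, a long non-coding RNA that hosts small nucleolar RNAs, and 3 came from cells with the vector control. All were collected 24 hours after transfection. The labels give testis as the source, germ cell as the cell type and non-obstructive azoospermia as the treatment for both groups, without saying what that treatment was. They do not say whether replicates were separate cultures, so the spread behind each p-value is that of these libraries and may be technical.

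Total counts ran from 19204858 to 21058425 in the SNHG1 overexpression libraries and from 15521900 to 21095427 in the vector libraries. A count of 0 therefore allows up to 3 counts, or 0.142 to 0.193 CPM (counts per 1000000 counts of the library) per library, which covers counting error only. Replicate libraries were not copies of each other, since their counts gave a chi-square of 11.55 to 18.28 for each degree of freedom. Snhg1 itself had 467, 555 and 487 counts in the SNHG1 overexpression libraries, against 464, 402 and 385 in the vector libraries. Its log2 fold change of 0.14 ± 0.10 (SE, 95% interval -0.09 to 0.37) did not pass (edgeR, adjusted p = 0.52). The groups overlapped in Snhg1, and directions given here follow the labels alone.

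Most of the spermatogonial genes had fewer than 10 counts over all libraries. Of 37 genes, 18 had 0 counts in all 6 libraries, which is 48.6%, against 31.4% of the 21608 protein-coding genes of the table. Another 8 had 1 to 9 counts in total. Only 11 genes reached 10 counts, 29.7% against 59.4% of protein-coding genes, and 9 of these had a count in every library and enough counts to be tested. The other 28 genes together had 14, 11 and 7 counts in the SNHG1 overexpression libraries, and 10, 12 and 5 counts in the vector libraries. The 9 tested genes were Gfra1, Etv5, Foxo1, Taf4b, Mcam, Rara, Rarg, Dnmt3a and Dnmt3b. In bulk libraries, fewer cells that express a gene and less RNA per cell cannot be told apart.

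**Figure D1:**
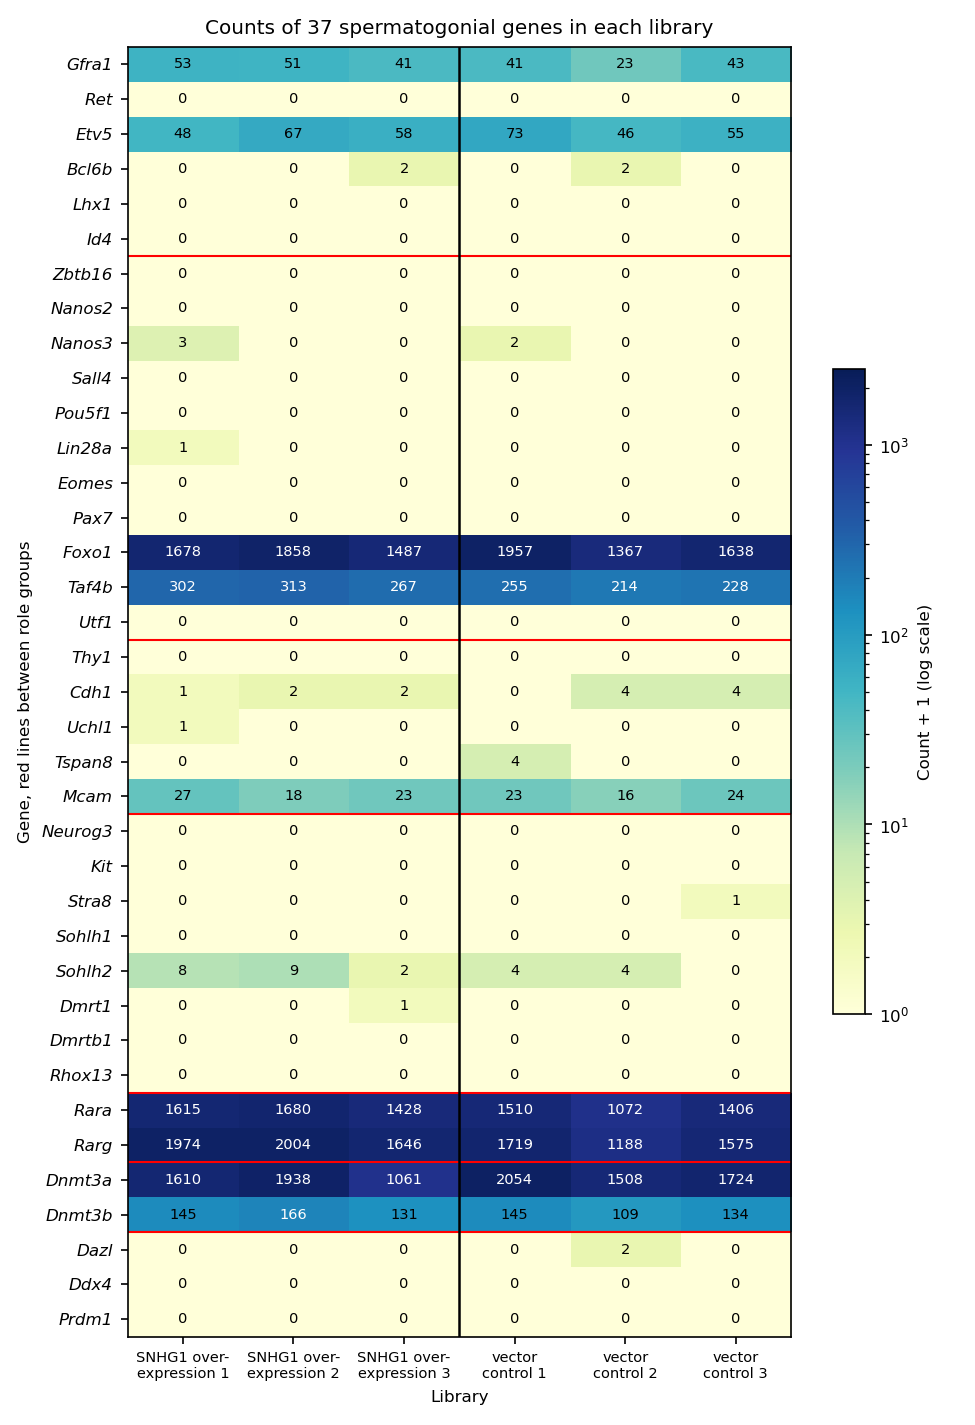
Counts of the 37 genes (rows, grouped by role between red lines) in each of the 6 libraries (columns, SNHG1 overexpression left of the black line and vector control right of it), coloured on a log scale of count + 1. The rows of 0 hold 18 genes, and the darkest rows are Foxo1, Rara, Rarg and Dnmt3a.

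The GDNF receptor was present in part. Ret (ENSMUSG00000030110), the signalling chain, had 0 counts in all 6 libraries. Gfra1 (ENSMUSG00000025089, chromosome 19, 58224036 to 58444341 in the deposited table, which names no build), the chain that binds GDNF, had 53, 51 and 41 counts in the SNHG1 overexpression libraries, against 41, 23 and 43 in the vector libraries. This is a low level: 2.42 ± 0.297 CPM with SNHG1 overexpression and 1.92 ± 0.425 CPM with vector control (SD, n = 3 each). The groups overlapped, with a log2 fold change of 0.32 ± 0.22 (SE, 95% interval -0.18 to 0.83), and Gfra1 did not pass (edgeR, adjusted p = 0.486).

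Among genes that respond to GDNF in cultured mouse stem spermatogonia, the ETS factor Etv5 was the only one tested. It had 48, 67 and 58 counts in the SNHG1 overexpression libraries, against 73, 46 and 55 in the vector libraries. Its log2 fold change was -0.13 ± 0.17 (SE), with overlapping groups (edgeR, adjusted p = 0.739). The transcriptional repressor Bcl6b had 4 counts, 2 in SNHG1 overexpression replicate 3 and 2 in vector control replicate 2. The homeobox factor Lhx1 and the inhibitor of DNA binding Id4, a marker of the stem cell pool, had 0 counts in all libraries.

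Of 11 regulators of undifferentiated spermatogonia, 7 had 0 counts in all libraries. These were the zinc-finger factors Zbtb16 and Sall4, the RNA-binding translational repressor Nanos2, the pluripotency factor Pou5f1, the T-box factor Eomes, the paired-box factor Pax7 and the chromatin factor Utf1. Nanos3, a relative of Nanos2, had 3 counts in SNHG1 overexpression replicate 1 and 2 in vector control replicate 1. The RNA-binding protein gene Lin28a had 1 count, in SNHG1 overexpression replicate 1.

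The remaining pair of this group, Foxo1 and Taf4b, was expressed in all libraries. Foxo1 (ENSMUSG00000044167, chromosome 3, 52175757 to 52260642, build not named), a forkhead factor under the control of AKT, stood at 86.1, 88.2 and 77.1 CPM in the SNHG1 overexpression libraries, against 93.1, 88.1 and 88.8 CPM in the vector libraries. The groups overlapped narrowly, and the log2 fold change was -0.10 ± 0.07 (SE), which did not pass (edgeR, adjusted p = 0.468). Foxo1 is also expressed in many somatic tissues. Taf4b, a gonad-enriched subunit of the general transcription factor TFIID, stood at 15.5, 14.9 and 13.8 CPM in the SNHG1 overexpression libraries, against 12.1, 13.8 and 12.4 CPM in the vector libraries. Every SNHG1 overexpression library was above every vector library, although the closest pair both round to 13.8 CPM. The log2 fold change of 0.21 ± 0.10 (SE, 95% interval -0.02 to 0.44) did not pass (edgeR, adjusted p = 0.334).

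Surface and cytoplasmic markers were mostly at or near 0. Thy1, a cell surface glycoprotein used to enrich mouse spermatogonial stem cells and also carried by fibroblasts and T cells, had 0 counts in all libraries. The ubiquitin hydrolase Uchl1 had 1 count, in SNHG1 overexpression replicate 1, and the tetraspanin Tspan8 had 4, all in vector control replicate 1. E-cadherin, encoded by Cdh1, had 1, 2 and 2 counts in the SNHG1 overexpression libraries, against 0, 4 and 4 in the vector libraries. The groups overlapped, and an exact two-sided permutation test on its CPM gave p = 0.4, where 0.1 is the smallest value that 3 against 3 libraries allow. The adhesion molecule Mcam had 27, 18 and 23 counts in the SNHG1 overexpression libraries, against 23, 16 and 24 in the vector libraries. Its log2 fold change was -0.01 ± 0.26 (SE), with overlapping groups (edgeR, adjusted p = 0.993) and a wide 95% interval of -0.61 to 0.60.

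Differentiation regulators were mostly at 0. Of 8 genes, 5 had 0 counts in all libraries: the stem cell factor receptor Kit (ENSMUSG00000005672), the basic helix-loop-helix factors Neurog3 and Sohlh1, the DM-domain factor Dmrtb1 and the X-linked homeobox gene Rhox13. Kit marks differentiating spermatogonia, the class that includes type B cells. Stra8, which retinoic acid induces in spermatogonia, had 1 count, in vector control replicate 3. The DM-domain factor Dmrt1 had 1 count, in SNHG1 overexpression replicate 3. Sohlh2, the partner of Sohlh1, had 8, 9 and 2 counts in the SNHG1 overexpression libraries, against 4, 4 and 0 in the vector libraries. The groups overlapped at these counts, and the exact two-sided permutation test on CPM gave p = 0.3, where 0.1 is the smallest value possible.

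The germline identity genes were not detected beyond 2 counts. Ddx4, the germ cell RNA helicase also called VASA, and Prdm1, a repressor needed for primordial germ cells in the mouse, had 0 counts in all libraries. Dazl, the germ cell translational regulator, had 2 counts, both in vector control replicate 2.

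The retinoic acid receptors were the most abundant of the 37 genes per length. Levels were compared between genes as CPM per kilobase of merged exons, with exon lengths from GENCODE M21. Rarg (ENSMUSG00000001288, chromosome 15, 102143373 to 102165952, build not named) stood at 22.0 ± 1.89 CPM per kilobase with SNHG1 overexpression and 19.1 ± 1.04 with vector control (SD, n = 3 each). Rara (ENSMUSG00000037992, chromosome 11, 98818644 to 98865768, build not named) stood at 18.1 ± 1.03 CPM per kilobase with SNHG1 overexpression and 16.6 ± 0.823 with vector control (SD, n = 3 each). Both encode nuclear receptors that turn retinoic acid into transcription of its target genes, and many somatic cells express them. Averaged over all libraries, Rarg was at percentile 79.2 and Rara at percentile 74.7 of 11539 tested protein-coding genes.

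Neither receptor passed the test between groups. Rarg stood at 101, 95.1 and 85.3 CPM in the SNHG1 overexpression libraries, against 81.8, 76.6 and 85.4 CPM in the vector libraries. Only SNHG1 overexpression replicate 3 reached into the vector range. The log2 fold change of 0.21 ± 0.08 (SE, 95% interval 0.03 to 0.39) had an unadjusted p of 0.0275 and did not pass over all genes (edgeR, adjusted p = 0.229). Rara stood at 82.9, 79.7 and 74.0 CPM in the SNHG1 overexpression libraries, against 71.9, 69.1 and 76.2 CPM in the vector libraries. The groups overlapped again at SNHG1 overexpression replicate 3, and the log2 fold change was 0.12 ± 0.07 (SE; edgeR, adjusted p = 0.384).

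**Figure D2:**
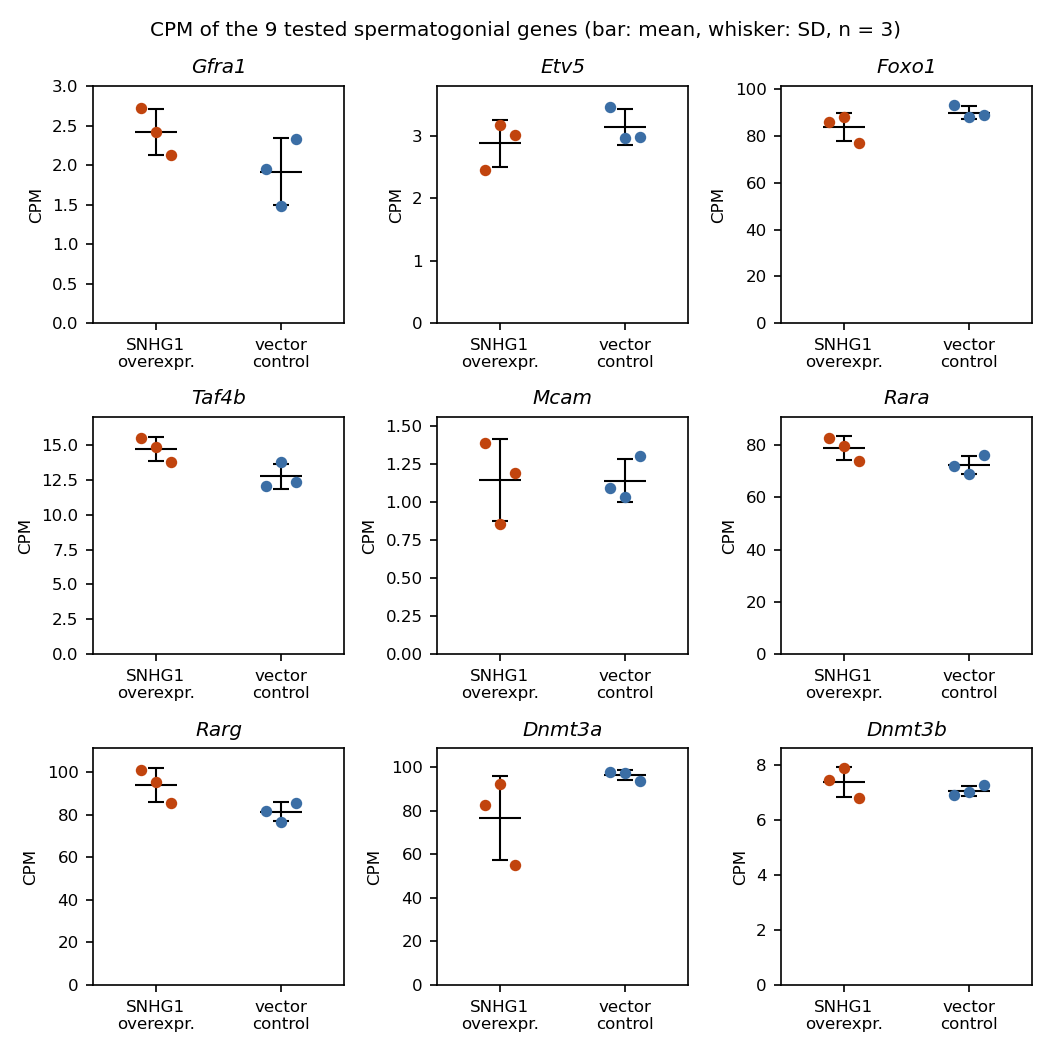
CPM of the 9 tested genes in each library, with SNHG1 overexpression on the left and vector control on the right of each panel. Points are libraries, bars are means and whiskers are SDs of 3 libraries. In Taf4b and Dnmt3a the groups do not overlap, and SNHG1 overexpression replicate 3 is the low point of Dnmt3a at 55.0 CPM.

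The de novo DNA methyltransferases, which set methylation patterns in the male germ line, were both expressed. Dnmt3a (ENSMUSG00000020661, chromosome 12, 3856007 to 3964443, build not named) stood at 82.6, 92.0 and 55.0 CPM in the SNHG1 overexpression libraries, against 97.8, 97.2 and 93.5 CPM in the vector libraries. All SNHG1 overexpression libraries were below all vector libraries, but replicate 3 was far below the other two. The coefficient of variation was 25.1% with SNHG1 overexpression and 2.43% with vector control. The log2 fold change of -0.33 ± 0.16 (SE, 95% interval -0.71 to 0.05) did not pass (edgeR, adjusted p = 0.347). Without SNHG1 overexpression replicate 3 it was -0.14 ± 0.07 (SE; edgeR, adjusted p = 0.488). Dnmt3b stood at 7.37 ± 0.547 CPM with SNHG1 overexpression and 7.06 ± 0.185 CPM with vector control (SD, n = 3 each). Its log2 fold change was 0.06 ± 0.11 (SE), with overlapping groups (edgeR, adjusted p = 0.81).

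The tested genes spanned a wide range of levels. Rarg and Rara overlapped in CPM per kilobase over the 6 libraries, at 18.0 to 23.8 for Rarg and 15.8 to 19.0 for Rara. Foxo1 followed at 9.67 ± 0.681 CPM per kilobase with SNHG1 overexpression and 10.4 ± 0.314 with vector control, and Dnmt3a at 4.60 ± 1.15 with SNHG1 overexpression and 5.78 ± 0.14 with vector control (SD, n = 3 each). Taf4b stood at 2.86 ± 0.162 CPM per kilobase with SNHG1 overexpression and 2.48 ± 0.175 with vector control, and Dnmt3b at 1.44 ± 0.107 with SNHG1 overexpression and 1.38 ± 0.0362 with vector control (SD, n = 3 each). With these lengths the 4 genes lay apart from each other in every library. Etv5 had 0.703 ± 0.0911 CPM per kilobase with SNHG1 overexpression and 0.765 ± 0.0705 with vector control (SD, n = 3 each). Gfra1 had 0.442 ± 0.0543 CPM per kilobase with SNHG1 overexpression and 0.351 ± 0.0776 with vector control, and Mcam 0.341 ± 0.0803 with SNHG1 overexpression and 0.341 ± 0.0421 with vector control (SD, n = 3 each). Gfra1 and Mcam did not differ from each other beyond their spread. Averaged over all libraries, Etv5 was at percentile 8.55 of the tested protein-coding genes, Gfra1 at 5.17 and Mcam at 4.32. These levels depend on the length used. The length implied by the deposited FPKM was 1.00 to 2.22 times the merged exon length over the 9 genes, with the widest gap in Gfra1 (12133 bp implied, 5476 bp merged) and ratios of 1.76 for Dnmt3b, 1.73 for Etv5, 1.66 for Mcam and 1.55 for Dnmt3a. By mean FPKM, Rarg was at percentile 78.9, Rara at 76.6, Foxo1 at 69.9, Etv5 at 7.36, Gfra1 at 3.02 and Mcam at 3.68. In FPKM the order of Dnmt3a and Taf4b turned in 1 library: SNHG1 overexpression replicate 3 had 2.15 FPKM of Dnmt3a and 2.64 of Taf4b, whereas Dnmt3a was above Taf4b in the other 5.

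Between the groups, 0 of 37 genes were called higher and 0 lower at an adjusted p under 0.05 (edgeR), with 9 genes tested. Over all 14605 tested genes 350 were called, or 2.4% (225 higher, or 1.54%, and 125 lower, or 0.856%), so a count of 0 among 9 is near the background. DESeq2 and limma-voom also called 0 of the 37. At an unadjusted p under 0.05 stood 1 of the 9, Rarg, against 17% of all tested genes. The groups did not overlap in 2 of the 9, Taf4b and Dnmt3a, against 23.7% of all tested genes. The median log2 fold change was 0.06 over the 9 and 0.01 over all tested genes. Genes at or near 0 in both groups say nothing of a change below the limit of a count of 0.

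**Figure D3:**
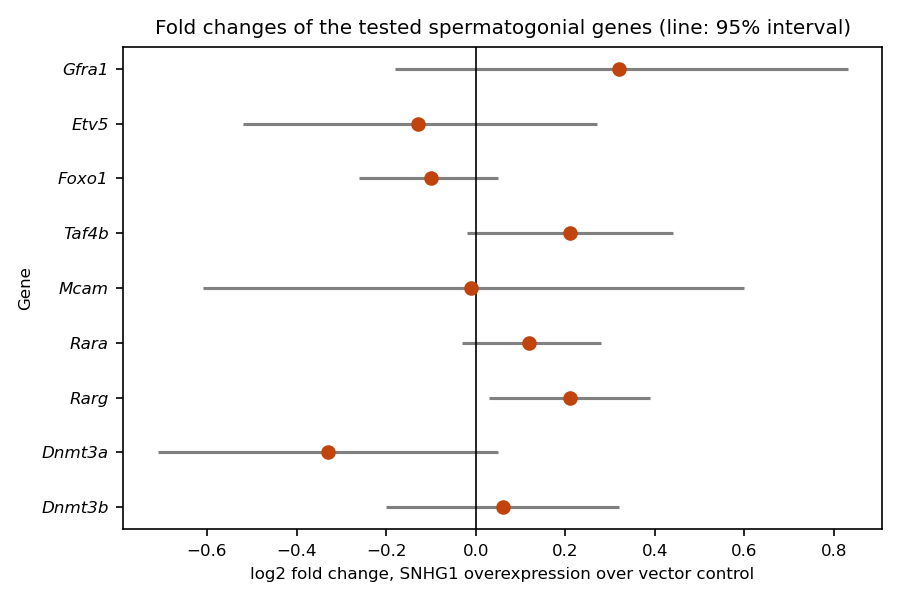
Log2 fold change of SNHG1 overexpression over vector control (x axis) for the 9 tested genes (y axis). Points are estimates from edgeR and lines are 95% intervals. The intervals of 8 genes include 0, and that of Rarg runs from 0.03 to 0.39.

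The genes around these receptors were described from 7 further lists. Of 94 listed genes, 56 were tested, and 3 rose and 2 fell (edgeR, adjusted p under 0.05), against 2.4% of all tested genes called in either direction. At an unadjusted p under 0.05 stood 19 of the 56, against 17% of all tested genes. The groups did not overlap in 23 of the 56, against 23.7% of all tested genes. The lists were chosen with earlier results known, so these shares are a description. In the GDNF and FGF list, 2 of 15 tested genes rose and 1 fell. Gdnf, the ligand of Gfra1, stood at 64.7, 58.7 and 59.3 CPM in the SNHG1 overexpression libraries, against 41.9, 40.5 and 41.7 CPM in the vector libraries. All SNHG1 overexpression libraries were above all vector libraries, and the log2 fold change was 0.56 ± 0.06 (SE; edgeR, adjusted p = 0.00448). The ligand was thus detected in every library, while Ret was detected in none. The FGF receptor Fgfr1 rose to 71.7 ± 2.43 CPM with SNHG1 overexpression, against 50.6 ± 1.40 CPM with vector control (SD, n = 3 each; log2 fold change 0.50 ± 0.06, SE; edgeR, adjusted p = 0.00487). Ncam1, a cell adhesion molecule that can serve with GFRA1 as a GDNF receptor, fell to 111 ± 7.62 CPM with SNHG1 overexpression, against 151 ± 7.14 CPM with vector control (SD, n = 3 each; log2 fold change -0.44 ± 0.07, SE; edgeR, adjusted p = 0.017). The call of Ncam1 was lost without SNHG1 overexpression replicate 2 or 3 or vector control replicate 1 or 3, with adjusted p of 0.0663 to 0.0807.

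Among other genes of undifferentiated spermatogonia, 1 of 10 tested rose and 1 fell, against 2.4% of all tested genes called in either direction. The heparan sulphate proteoglycan Sdc4 stood at 115, 128 and 131 CPM in the SNHG1 overexpression libraries, against 83.3, 81.6 and 82.0 CPM in the vector libraries, with a log2 fold change of 0.60 ± 0.06 (SE; edgeR, adjusted p = 0.00288). The integrin chain Itga6, used to sort mouse stem spermatogonia, stood at 103, 106 and 103 CPM in the SNHG1 overexpression libraries, against 140, 144 and 144 CPM in the vector libraries, with a log2 fold change of -0.45 ± 0.05 (SE; edgeR, adjusted p = 0.00378). Both genes separated the groups completely, and both are also expressed in many cell types outside the germ line. DESeq2 also called Foxc2, a forkhead factor of the list, lower. Over all genes DESeq2 called 691, against 350 with edgeR. Foxc2 stood at 28.4 ± 2.8 CPM with SNHG1 overexpression and 38.6 ± 6.68 CPM with vector control (SD, n = 3 each; edgeR, adjusted p = 0.154). Epcam, Egr4, Mycn, Rhox10 and Shisa6 had 0 counts in all libraries.

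**Figure D4:**
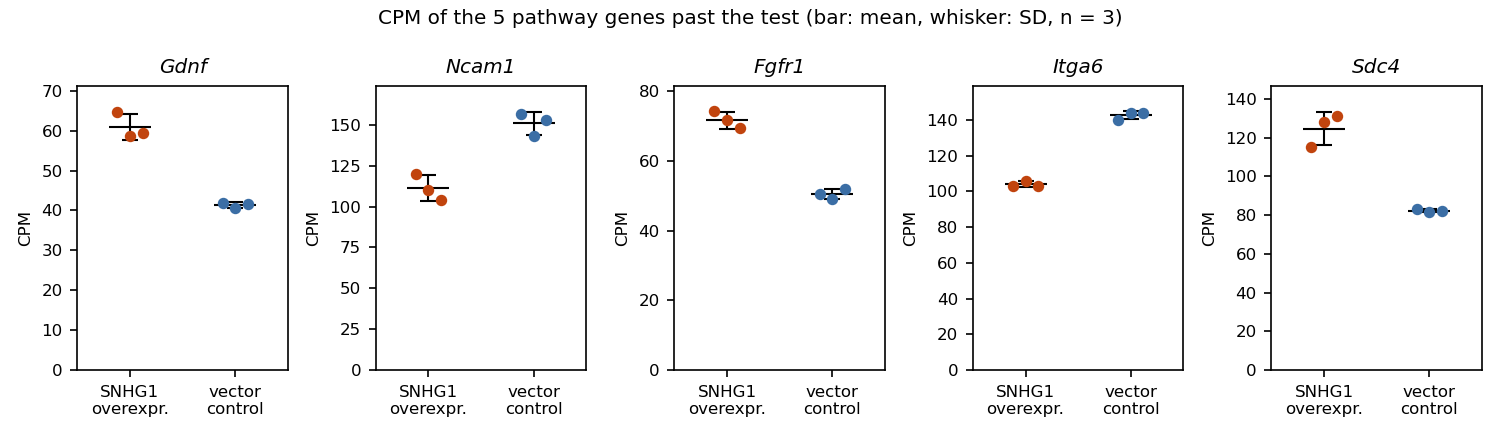
CPM of the 5 genes of the further lists that passed the test, in each library, with SNHG1 overexpression on the left and vector control on the right of each panel. Points are libraries, bars are means and whiskers are SDs of 3 libraries. In each gene the 3 points of one group lie apart from the 3 of the other, with Gdnf, Fgfr1 and Sdc4 higher and Ncam1 and Itga6 lower in SNHG1 overexpression.

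No gene of the retinoic acid list passed among 8 tested (edgeR; 3 had an unadjusted p under 0.05, against 17% of all tested genes, and DESeq2 and limma-voom called 0). Rxra, the dimer partner of the receptors, stood at 96.5 ± 3.04 CPM with SNHG1 overexpression and 85.9 ± 1.87 CPM with vector control (SD, n = 3 each; edgeR, adjusted p = 0.171). Cyp26b1, which breaks down retinoic acid, stood at 1.80, 2.70 and 2.85 CPM in the SNHG1 overexpression libraries, against 4.81, 3.48 and 3.85 CPM in the vector libraries, and did not pass (log2 fold change -0.73 ± 0.22, SE; edgeR, adjusted p = 0.153). Aldh1a2, a retinaldehyde dehydrogenase that makes retinoic acid, had 0 counts in all libraries. Its relatives Aldh1a1 and Aldh1a3 had 56 counts and 1 count over all libraries. Rdh10 of the same list stood at 25.4 ± 1.97 CPM with SNHG1 overexpression and 22.1 ± 0.63 CPM with vector control (SD, n = 3 each). It was higher in every SNHG1 overexpression library but did not pass (edgeR, adjusted p = 0.289). The groups did not overlap, in either direction, in 5 of the 8 tested genes of this list, against 23.7% of all tested genes.

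No gene of the KIT list passed among 12 tested (edgeR; 4 had an unadjusted p under 0.05, against the same 17%, and calls numbered 1 with DESeq2 and 0 with limma-voom). Kitl, the ligand of KIT, stood at 153, 116 and 125 CPM in the SNHG1 overexpression libraries, against 173, 174 and 166 CPM in the vector libraries. The groups did not overlap, but Kitl did not pass (log2 fold change -0.38 ± 0.10, SE; edgeR, adjusted p = 0.104). It was the gene that DESeq2 called (adjusted p = 0.011), among 691 called over all genes. The groups did not overlap in 4 of the 12 tested genes of this list, against 23.7% of all tested genes. The ligand was thus detected in every library, while its receptor Kit had 0 counts.

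No gene of the DNA methylation list passed among 10 tested (edgeR; 3 had an unadjusted p under 0.05, against the same 17%, and calls numbered 1 with DESeq2 and 0 with limma-voom). The gene that DESeq2 called, among 691 over all genes, was Tet2, an enzyme that oxidises methylated cytosine. Tet2 stood at 15.8 ± 2.14 CPM with SNHG1 overexpression and 22.4 ± 3.16 CPM with vector control (SD, n = 3 each; DESeq2, adjusted p = 0.0371; edgeR, adjusted p = 0.123). The maintenance methyltransferase Dnmt1 stood at 336 ± 29.8 CPM with SNHG1 overexpression and 309 ± 18.8 CPM with vector control (SD, n = 3 each; edgeR, adjusted p = 0.468). Dnmt3l, the germ cell cofactor of the de novo enzymes, had 12, 8 and 11 counts in the SNHG1 overexpression libraries, against 2, 4 and 0 in the vector libraries. All SNHG1 overexpression libraries were above all vector libraries at these low counts, which were too few for the fit. An exact two-sided permutation test on its CPM gave p = 0.1, the smallest value possible, and an adjusted p of 0.3 over the 12 genes of the further lists with 10 or more counts that were not in the fit.

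Genes of later or general germ cell stages were also scarce. Of 10 analysed germ cell genes 6 had 0 counts, among them Mael, Tdrd1 and Dppa3, and none was tested. The RNA-binding protein gene Dnd1 had 7, 6 and 6 counts in the SNHG1 overexpression libraries, against 13, 7 and 8 in the vector libraries. The Piwi gene Piwil4 had 10, 9 and 12 counts in the SNHG1 overexpression libraries, against 7, 3 and 6 in the vector libraries. In CPM the groups did not overlap in either gene, lower with SNHG1 overexpression in Dnd1 and higher in Piwil4, each with the smallest possible exact permutation p of 0.1 and an adjusted p of 0.3 over the same 12 genes. Piwil2 had 39 counts over all libraries, with an exact permutation p of 0.2. Among the same 12 genes the groups did not overlap in 4: Dnmt3l, Dnd1, Piwil4 and Sycp3. Of all tested genes 23.7% did not overlap, but the 12 genes did not pass the filter, so the sets are unlike. Sycp3 had 3, 3 and 3 counts in the SNHG1 overexpression libraries, against 8, 5 and 4 in the vector libraries (exact permutation p = 0.1, adjusted p = 0.3). Of 10 genes of differentiating spermatogonia and meiotic entry, 4 were tested and 0 passed (edgeR), and DESeq2 and limma-voom called 0. Of these 4, 1 had an unadjusted p under 0.05 (edgeR), against 17% of all tested genes. The cyclin gene Ccnd2, the most counted of this list, stood at 286 ± 7.30 CPM with SNHG1 overexpression and 318 ± 9.92 CPM with vector control (SD, n = 3 each; edgeR, adjusted p = 0.19).

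The labelled cell type, a germ cell, was therefore set against markers of other cells. The 13 fibroblast genes summed to 25500 to 26700 CPM in the SNHG1 overexpression libraries and 30600 to 32400 CPM in the vector libraries, with 50.8% from the collagen gene Col1a2. Of the 13, 2 had 0 counts, Lum and Postn, and Dcn had 20 counts over all libraries and was not tested. Of 10 tested fibroblast genes 3 fell and 1 rose (edgeR, adjusted p under 0.05), against 2.4% of all tested genes called in either direction. Those that fell were Col1a2, the collagen gene Col3a1 and the fibronectin gene Fn1. The one that rose was the growth factor receptor gene Pdgfra, at 288 ± 21.9 CPM with SNHG1 overexpression and 208 ± 7.91 CPM with vector control (SD, n = 3 each; edgeR, adjusted p = 0.0143). The lower sum was thus not shared by all of its genes. At an unadjusted p under 0.05 (edgeR) stood 7 of the 10 tested fibroblast genes, against 17% of all tested genes. The groups did not overlap in 7 of the 10, against 23.7% of all tested genes. Of these 7, Pdgfra and Twist2 were higher with SNHG1 overexpression and the others lower. The 9 Sertoli cell genes summed to 606 to 702 CPM in the SNHG1 overexpression libraries and 582 to 616 CPM in the vector libraries. Of that sum 89.3% came from the homeobox gene Rhox5. Sox9 stood at 59.8 ± 3.75 CPM with SNHG1 overexpression and 62.1 ± 8.6 CPM with vector control (SD, n = 3 each). Gata4 stood at 4.94 ± 1.86 CPM with SNHG1 overexpression and 6.28 ± 1.47 CPM with vector control (SD, n = 3 each). Amh had 86 counts over all libraries, while Wt1, Fshr, Cldn11 and Inhbb had 0 counts. Of the 4 tested Sertoli cell genes 0 were called (edgeR, adjusted p under 0.05). The Leydig cell list summed to at most 3.06 CPM in SNHG1 overexpression and 2.87 CPM in vector libraries, mainly Star, and the steroidogenic genes Cyp11a1, Cyp17a1 and Hsd3b1 and the receptor gene Lhcgr had 0 counts. The peritubular list reached at most 10.4 CPM in SNHG1 overexpression and 12.5 CPM in vector libraries, mainly Acta2. The endothelial list reached at most 1.87 CPM in SNHG1 overexpression and 1.84 CPM in vector libraries, with the largest part from Cdh5. The 8 macrophage genes summed to 27.8 to 31.5 CPM in the SNHG1 overexpression libraries and 17.9 to 19.5 CPM in the vector libraries. Of this sum 79.2% came from Cd14, the 1 gene called among the 3 tested (higher, edgeR, adjusted p = 0.00728), against 2.4% of all tested genes. Cd68 was also higher in every SNHG1 overexpression library but did not pass (edgeR, adjusted p = 0.0904). It stood at 3.83 ± 0.187 CPM with SNHG1 overexpression and 2.47 ± 0.274 CPM with vector control (SD, n = 3 each). Csf1r, a receptor gene that defines macrophages, stood at 1.04 ± 0.0962 CPM with SNHG1 overexpression and 1.43 ± 0.0823 CPM with vector control (SD, n = 3 each; edgeR, adjusted p = 0.319). Adgre1, another defining gene, had 5, 3 and 2 counts in the SNHG1 overexpression libraries, against 6, 7 and 5 in the vector libraries. In CPM, Csf1r and Adgre1 were each lower in every SNHG1 overexpression library, the reverse of Cd14 and Cd68. The groups did not overlap in any of the 3 tested macrophage genes, against 23.7% of all tested genes. The fibroblast and macrophage sums, each carried by a few genes, differed between the groups, and their part in the values of Gdnf, Fgfr1, Ncam1, Sdc4 and Itga6 was not tested.

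Promoter sequence was described because the genes divided into expressed and undetected ones. Germ cell genes are often silenced in other cells by methylation of CG dinucleotides, which was not measured here. RefSeq promoter windows on GRCm38.p6, from 250 bases before to 50 after a start, were found for 29 of the 37 genes. Those not matched were Ret, Bcl6b, Zbtb16, Sall4, Taf4b, Thy1, Cdh1 and Dmrt1. Where a gene had several windows, the one with the most CG dinucleotides was used. The coordinates of the windows do not match the deposited spans given above, which follow another build. The windows below show an expressed gene rich in CG (Dnmt3a), the most abundant gene (Rarg), an undetected gene rich in CG (Ddx4) and an undetected gene without any (Nanos2). They lie at chr12:3806910-3807209 (plus strand), chr15:102257473-102257772 (minus), chr13:112652261-112652560 (minus) and chr7:18987274-18987573 (plus), are written 5′ to 3′ along the gene, and have each CG in capitals.
Dnmt3a: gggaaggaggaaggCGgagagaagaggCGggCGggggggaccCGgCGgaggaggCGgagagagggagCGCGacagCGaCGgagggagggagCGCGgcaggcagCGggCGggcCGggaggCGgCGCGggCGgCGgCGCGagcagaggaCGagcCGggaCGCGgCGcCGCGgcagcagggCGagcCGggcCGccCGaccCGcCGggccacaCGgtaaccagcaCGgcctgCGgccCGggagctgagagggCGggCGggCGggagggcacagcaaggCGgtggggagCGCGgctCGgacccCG
Rarg: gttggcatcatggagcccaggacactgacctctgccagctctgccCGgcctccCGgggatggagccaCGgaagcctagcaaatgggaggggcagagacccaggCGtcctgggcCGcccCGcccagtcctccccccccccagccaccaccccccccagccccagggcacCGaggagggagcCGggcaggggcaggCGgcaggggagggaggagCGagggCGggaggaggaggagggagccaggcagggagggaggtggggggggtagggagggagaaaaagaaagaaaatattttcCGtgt
Ddx4: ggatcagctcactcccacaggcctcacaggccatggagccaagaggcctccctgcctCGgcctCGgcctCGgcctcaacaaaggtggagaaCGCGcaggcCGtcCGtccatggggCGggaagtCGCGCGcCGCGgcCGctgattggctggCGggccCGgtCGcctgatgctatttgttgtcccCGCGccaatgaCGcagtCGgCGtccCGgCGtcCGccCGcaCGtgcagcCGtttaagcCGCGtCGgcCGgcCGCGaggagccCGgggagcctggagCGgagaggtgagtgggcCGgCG
Nanos2: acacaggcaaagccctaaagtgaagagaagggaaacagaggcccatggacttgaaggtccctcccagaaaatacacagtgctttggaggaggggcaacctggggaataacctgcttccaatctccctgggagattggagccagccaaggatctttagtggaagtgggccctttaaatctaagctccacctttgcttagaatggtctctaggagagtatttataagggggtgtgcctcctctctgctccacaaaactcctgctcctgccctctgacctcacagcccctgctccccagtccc
The window of Dnmt3a held 47 CG dinucleotides, a number reached by 1.66% of 27025 genes with a window, and that of Ddx4 held 38, reached by 5.59%. The window of Rarg held 12 and that of Nanos2 held 0. Over 8 tested genes the number ran from 12 to 47, with a median of 29.5. Over 14 genes with 0 counts it ran from 0 to 39, with a median of 18, and over the 7 others from 3 to 28, with a median of 10. The median of all genes was 8. These genes were not selected for protein coding, while all 37 were protein coding, so they are not a matched background. The ranges of tested and undetected genes overlapped widely: the undetected Id4, Ddx4 and Lhx1 held 39, 38 and 31, more than the abundant Rara with 21 and Rarg with 12. The GC box GGGCGG, searched on both strands, was in 7 of 8 tested genes, 8 of 14 genes with 0 counts and 37.3% of all genes, and such boxes contain a CG themselves. The E-box CACGTG was in 3 of the 29 windows (Ddx4, Rara and Sohlh1) and in 7.39% of all genes. The sequence TATAAA, on either strand, was in 1 of the 29 (Nanos2) and in 13.7% of all genes.

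**Figure D5:**
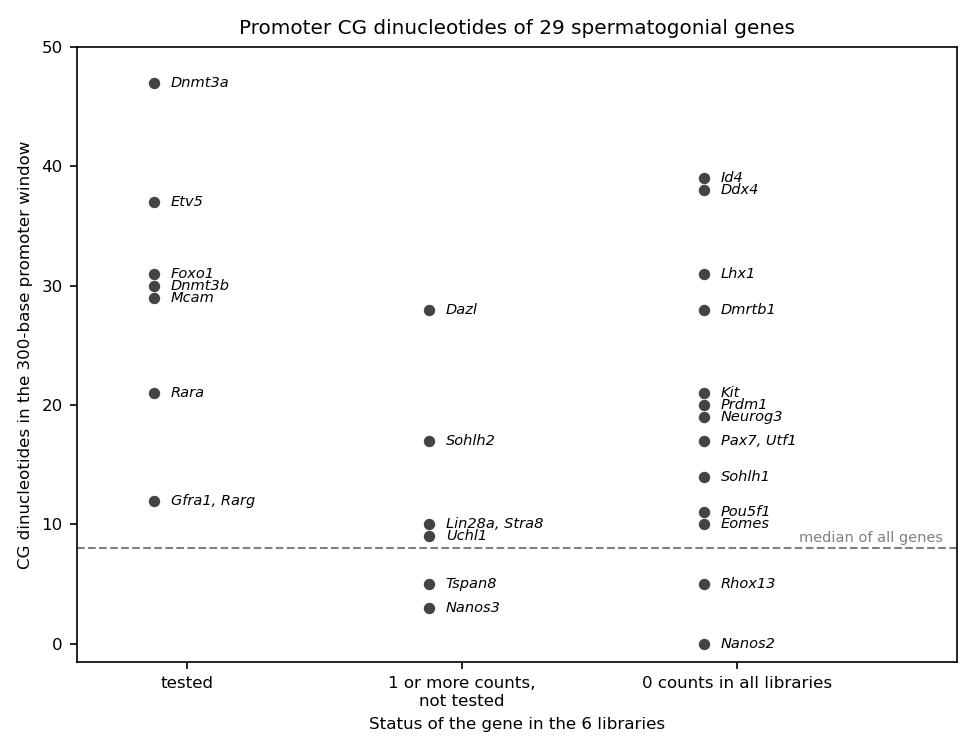
Number of CG dinucleotides in the 300-base promoter window (y axis) of 29 genes, by their status in the 6 libraries (x axis: tested, 1 or more counts but not tested, 0 counts in all libraries). Each point is a gene or genes with the same number. The dashed line is the median of all genes, not selected for protein coding, at 8. Tested genes lie between 12 and 47 and undetected genes between 0 and 39.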

How the data were processed

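RNA from 6 libraries of GC-1 spg cells was sequenced as poly(A)-selected, stranded, paired-end mRNA, per the labels' protocols. The authors deposited 1 table with whole-number counts per gene and FPKM values, and FPKM was proportional to count over library total within a gene, to 0.00827% in genes with 10 or more counts per library. HISAT2, SAMtools 1.3.1 and StringTie, and the human build GRCh38, are named in the submitters' processing notes, but every one of the 57180 row identifiers is a mouse Ensembl gene. How reads were counted, whether strand was used and which build the coordinates follow are details not given in the sources used here. The deposited spans of Dnmt3a, Rarg, Ddx4 and Nanos2 lie apart from their GRCm38.p6 promoter windows, so the deposited coordinates do not follow that build. Of the genes overlapping the 9 tested genes, the most counted was Gm20402, opposite to Foxo1, with 123 counts against 9985.

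Libraries were grouped by title. Counts were tested with the quasi-likelihood test of edgeR 4.0.16 (R 4.3.3), with TMM normalization (factors of 0.9961 to 1.005, also used for CPM), filterByExpr at its defaults and no covariate. Benjamini-Hochberg adjustment ran over 14605 genes, with a threshold of 0.05. The 525 rows with no gene type held 0.194% of counts. Merged exon lengths came from GENCODE M21, which has all 37 genes. The pipeline was tested on simulated counts of 14605 genes, with changed genes drawn from all of them. It recovered 71% of 100 genes changed 2-fold and 38% of 100 changed 1.5-fold, and called 6 unchanged genes. Alternatives were other normalizations and filters, DESeq2 1.42.0, limma-voom (limma 3.58.1), the replicate number as a block, and leaving out each library.

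The 37 genes and the other lists were chosen with earlier results of these data known. Genes named are the 37, Snhg1, genes of the further lists that passed the test, the most counted gene of each marker list and defining genes of each list. Other marker genes named, and Sycp3, Aldh1a1, Aldh1a3 and Rdh10, were chosen after their values were seen. Gcna was not analysed here.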

Additional observations from a re-analysis of the deposited data

How the results depend on the processing

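No alternative called any of the 37 genes: the counts of genes called higher and lower were 0 under all 13 alternatives, and with no filter every gene with a count entered the fit. Of the 9 tested genes, 8 kept the sign of their log2 fold change in each alternative that tested them. The exception was Mcam, at -0.01, which was 0.00 with no filter and ran from -0.17 to 0.17 with single libraries left out. Gdnf, Fgfr1, Sdc4 and Itga6 kept their call in all 13, and Snhg1 stayed below the threshold with 0.07 to 0.22. Against 350 called genes, DESeq2 called 691 and the replicate block 163. With 1 library left out the number ran from 123 (vector control replicate 1) to 807 (SNHG1 overexpression replicate 1), over 162 and 176 for the other SNHG1 overexpression libraries and 151 and 143 for the other vector libraries. Such fits hold 5 libraries, and why 807 is so high was not tested. The titles share replicate numbers between groups, but same-numbered libraries deviated together with correlations of only 0.031, -0.047 and -0.020 across genes. Library 1 alone correlated best with its own number. No pairing by number was thus seen, although 3 libraries per group are too few to exclude one. Genes with 10 or more counts numbered 11, 9 with a count required in each library, and 10 to 11 with single libraries left out. Genes with 0 counts numbered 18, and 18 to 20 with single libraries left out. That last choice was made after seeing the data. Depth limits the undetected genes to the level that a count of 0 allows, and leaves intervals of over 1 log2 unit for Gfra1 and Mcam.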
